A study of Danio rerio with 12 samples.

Results

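Open chromatin in cells carrying both an endothelial and a niche reporter was compared with open chromatin in cells of the same zebrafish embryos carrying neither. The double positive fraction (kdrl:mCherry+, sele:GFP+; 3 samples) was set against the double negative fraction (kdrl:mCherry-, sele:GFP-; 3 samples), which makes 6 of the 12 samples of the series. Both fractions were sorted from whole wild-type embryos at 72 hours post fertilisation that carried both transgenes and received no treatment, and 12000 to 50000 cells were used per the labels' protocols. The other fractions, mCherry only (kdrl:mCherry+, sele:GFP-) and GFP only (kdrl:mCherry-, sele:GFP+), with 3 samples each, served as context. One pooled list of peaks stands for each fraction, so the differences below could not be checked against replicates and carry no p-value. Whether the 3 samples of a fraction came from separate clutches is not given in the sources used here.

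Active promoters and enhancers lose nucleosomes, and the Tn5 transposase of ATAC-seq cuts and tags such accessible DNA, so that peaks of reads mark regulatory regions that are open in at least some of the cells. The gene kdrl codes for a VEGF receptor (vascular endothelial growth factor), and its regulatory sequences drive expression in endothelial cells. The gene sele encodes E-selectin, an adhesion molecule of endothelium that captures blood cells. In zebrafish larvae, blood stem cells lodge in a venous plexus of the tail, where endothelial cells wrap around them, and the series concerns such vascular niches. The double negative gate held the other cell types of the embryo mixed together. In such mixtures, fewer cells with an open region and less opening per cell cannot be told apart. The loci of kdrl and sele were not analysed here, so the fractions are named by their sorting gates and not by an endothelial or niche identity.

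On chromosomes 1 to 25 of the danRer7 build the double positive list held 90687 peaks and the double negative list 166282. These are 256969 of the 529593 peaks of all 4 lists. A double positive peak that overlapped no double negative peak by 1 bp or more is called gained, and a double negative peak that overlapped no double positive peak is called lost. These words compare 2 fractions and stand for no change in time. Peak height, here and below, means summit reads over the genome-wide background of the same list, which was 3.63 reads for double positive and 4.47 for double negative (mCherry only 4.46, GFP only 4.26). The double positive list thus had the lower background, with 0.813 of the background reads of the double negative list. Sequencing depth itself was not measured here.

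Most double positive peaks had a counterpart in double negative cells, while most regions called in double negative cells were not called in double positive cells. There were 23347 gained peaks, 25.7% of the double positive list (Wilson 95% interval 25.5 to 26.0, counting error only). There were 99915 lost peaks, 60.1% of the double negative list (59.9 to 60.3). Gained peaks covered 7.64 Mb and lost peaks 38.0 Mb. When every list was shortened to 90687 peaks by −log10 p, 43.2% of double positive peaks were gained and 44.7% of double negative peaks were lost. Where peaks are shared mostly 1 to 1, lists of equal length must give nearly equal shares. In unequal lists the longer must have the larger share. Set against each other, the gained and lost shares thus add little to the list lengths.

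Gained and lost regions were mostly low and narrow. Median height was 5.51 for gained peaks (quartiles 4.13 and 8.26) and 4.93 for lost peaks (4.03 and 6.72). Peaks shared by the lists had median heights of 7.99 among double positive peaks and 8.73 among double negative peaks. The median width was 285 bp for gained peaks and 333 bp for lost peaks, against 389 bp for shared double positive peaks and 472 bp for shared double negative peaks. Sharing thus went with taller and wider peaks in both fractions. Part of this is built into the rule, since a wider peak more easily overlaps another by 1 bp.

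From height 20 upwards the order of the shares was the opposite. At height 10 or more it was still that of the whole lists, with 13.9% gained and 22.7% lost. Of the 10436 double positive peaks of height 20 or more, 799 were gained (7.66%, 7.16 to 8.18), while 345 of 8998 double negative peaks of that height were lost (3.83%, 3.46 to 4.25). Below height 4 the shares were 45.0% gained and 84.0% lost. This reversal held where the local background was under 5 times the genome-wide one, with 720 gained peaks (7.79%) and 294 lost peaks (3.66%). It was not seen with the authors' fold, the enrichment over the local background at the summit: at a fold of 10 or more, 630 of 7679 double positive peaks were gained (8.20%, 7.61 to 8.84) and 714 of 8772 double negative peaks were lost (8.14%, 7.59 to 8.73). The statement that tall regions were gained more often than lost thus rests on the measure of height and on the cut at 20.

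**Figure D1:**
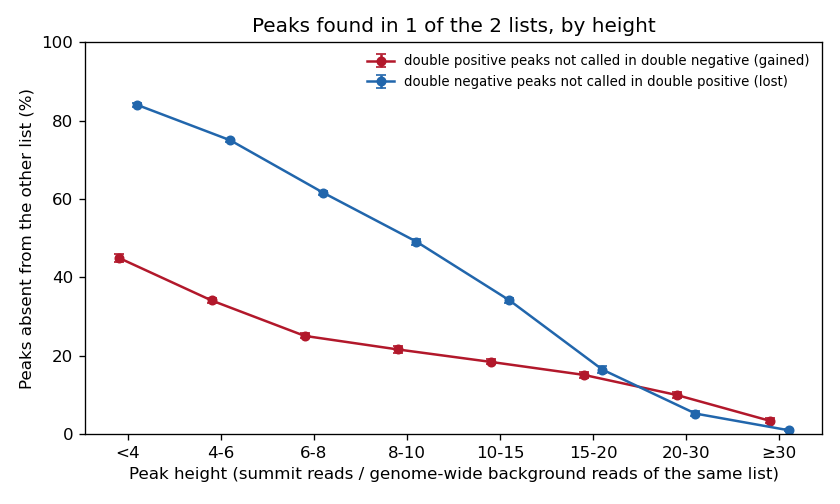
Share of peaks absent from the other list (y axis, percent) by peak height (x axis, summit reads over the background of the same list), for double positive peaks (gained, red) and double negative peaks (lost, blue). Points are shares and bars are Wilson 95% intervals; the lost share falls from 84.0% to 0.980% and drops below the gained share, which ends at 3.38%, from height 20 upwards.

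The tallest regions of a fraction were mostly called in the other one too, but less often among its tallest. Of the 1000 tallest double positive peaks, 14 were not in the double negative list, and of the 1000 tallest double negative peaks, 9 were not in the double positive list. Among the 10000 tallest peaks of each list, 741 double positive and 440 double negative peaks were missing from the other list. Only 29 lost peaks reached height 30, and 21 of them lay where the local background was at least 5 times the genome-wide one. Of the 2929 shared double negative peaks of that height, 576 did so. Among the 124 gained peaks of that height, 38 did so, against 761 of the 3540 shared double positive peaks. The part of high local background in these tallest peaks was not tested.

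Absence from a list is not absence of reads. At a local background at most 5% above the genome-wide value, the lowest called double positive peak had 10 reads (height 2.75) and the lowest called double negative peak had 11 (height 2.46). Of the gained peaks, 11479 (49.2%) stood at least 2 times above the lowest height called in the double negative list at the same relative local background, and 2366 (10.1%) at least 4 times. Of the lost peaks, 30958 (31.0%) stood at least 2 times above the corresponding height of the double positive list and 2071 (2.07%) at least 4 times. For the remaining peaks, a region less than 2-fold lower in the other list could have gone uncalled there. These heights are the lowest of any called peak, so a region above them need not have been called either. At the edge of the overlap rule, 301 double positive peaks overlapped a double negative peak by at most 50 bp, and 208 gained peaks lay within 50 bp of one without touching it. The median height was 4.41 for the overlapping peaks and 4.68 for the gained ones.

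Gained peaks were called more often in mCherry only than in GFP only, and less often in either list than shared peaks were. The mCherry only list held 60.0% of the gained peaks (59.3 to 60.6) and the GFP only list 31.3% (30.7 to 31.9). For lost peaks the lists differed less, with 34.1% called in mCherry only (33.8 to 34.4) and 35.6% in GFP only (35.3 to 35.9). Neither list took part in choosing gained or lost peaks. Shared peaks of the double positive list were called in mCherry only in 93.5% and in GFP only in 86.7% of cases. For shared peaks of the double negative list these shares were 93.6% and 86.9%, far above those of lost peaks.

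Among tall peaks, gained regions stood apart from shared ones more by a lower share of GFP only calls than by a lower share of mCherry only calls. At height 20 or more, GFP only held 346 of 799 gained peaks (43.3%, 39.9 to 46.8) and 98.0% of the shared double positive peaks (97.7 to 98.3), while mCherry only held 98.4% of the gained peaks and 99.9% of the shared ones. At height 10 or more, the GFP only shares were 32.6% of gained and 95.3% of shared peaks, and the mCherry only shares were 91.3% of gained and 99.6% of shared peaks. Below height 4, 29.6% of gained peaks had a call in mCherry only and 29.4% in GFP only. From height 10 to 15 the shares were 87.2% and 29.6%, and from height 20 to 30 they were 98.8% and 39.4%. At height 30 or more, mCherry only held 96.0%. The GFP only share stayed between 28.7% and 32.8% up to height 20 and reached 64.5% (55.8 to 72.4) in the 124 peaks of height 30 or more. Of the 630 gained peaks with a fold of 10 or more, 41.3% were called in GFP only and all in mCherry only. The shares for shared peaks of that fold are not given here.

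From height 4 upwards, lost regions showed a smaller separation than gained ones between the single-reporter fractions. From height 10 to 15, 64.4% of lost peaks were called in mCherry only and 54.7% in GFP only. From height 20 to 30 the shares were 91.5% and 78.2%. Among the 345 lost peaks of height 20 or more, 258 (74.8%) were called in both lists, so these regions had a call in every fraction except double positive. Of the gained peaks of that height, 342 of 799 (42.8%) were called in both single-reporter lists. Shared double negative peaks of that height were called in both in 99.5% of cases.

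**Figure D2:**
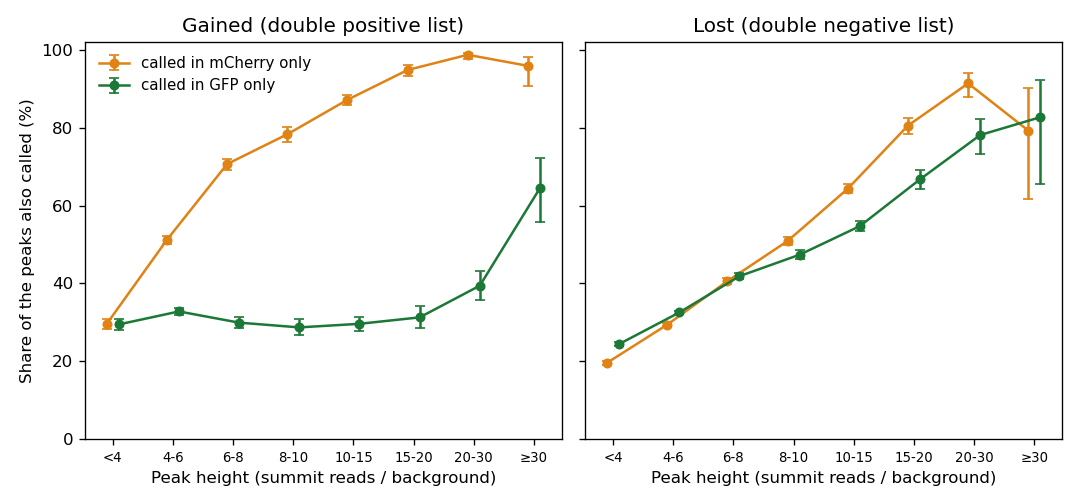
Share of gained peaks (left) and lost peaks (right) also called in the mCherry only list (orange) and in the GFP only list (green), by height in their own list; points are shares in percent and bars are Wilson 95% intervals. In gained peaks the orange points go from 29.6% below height 4 to 98.8% at height 20 to 30 and lie above the green ones from height 4 upwards; in lost peaks the orange and green shares differ by less than in gained peaks from height 4 upwards.

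Where gained regions were called in a single-reporter list, their height there depended on which list chose the regions. Among 3277 gained peaks whose geometric mean height over double positive and mCherry only was 10 or more, median heights were 15.4 in double positive and 12.3 in mCherry only. The same choice for GFP only left 745 gained peaks, with medians of 16.8 in double positive and 9.61 in GFP only. Chosen by mCherry only height alone, 3290 gained peaks had medians of 11.3 in double positive and 12.8 in mCherry only. With GFP only height alone as the choice, 639 gained peaks had medians of 8.26 in double positive and 12.7 in GFP only. The higher level in double positive cells is therefore not independent of the choice.

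The gained peaks with the highest fold were called in both mCherry-positive fractions and had fewer reads, or no call, in GFP only. The 10 leading ones lay on 7 chromosomes, had folds of 15.3 to 16.6 and widths of 474 to 683 bp, and the mCherry only list held all 10 of them, the GFP only list 5. All 630 gained peaks with a fold of 10 or more were called in mCherry only, and 41.3% in GFP only. These calls therefore do not set the 10 apart. The highest fold belonged to a peak at chr6:31006095-31006602, with 89 reads in double positive (71.5 to 110), 48 in mCherry only and no call in GFP only. The peak with the most reads of the 10 lay at chr1:46484596-46485142, with 150 reads in double positive (exact Poisson 95% interval 127 to 176), 105 in mCherry only and 21 in GFP only. The peak at chr6:8315200-8315683 had 101 reads in double positive (82.3 to 123), 68 in mCherry only and 18 in GFP only.

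A peak at chr20:42635978-42636478 had 84 reads in double positive (67.0 to 104), 72 in mCherry only and 29 in GFP only. The peak at chr23:39135787-39136320 had 104 reads in double positive (85.0 to 126), 98 in mCherry only and 13 in GFP only. By the rule, none of them was called in double negative cells. The other 5 of the 10 had 80 to 128 reads in double positive, and the GFP only list held 1 of them.

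The lost peaks with the highest fold were lower in the single-reporter fractions than in double negative wherever they were called, and some had no call there. The 10 leading ones lay on 10 chromosomes with folds of 14.5 to 15.1, and 9 were called in mCherry only and 7 in GFP only. Of all 714 lost peaks with a fold of 10 or more, 85.6% were called in mCherry only and 71.4% in GFP only. The first of the 10 leading ones lay at chr17:2823431-2824155, with 107 reads in double negative (87.7 to 129), 30 in mCherry only and 25 in GFP only. A peak at chr3:61363725-61364432 had 83 reads in double negative (66.1 to 103), 35 in mCherry only and 60 in GFP only. Its height was 18.6 in double negative, 7.85 in mCherry only and 14.1 in GFP only. A peak at chr15:6325215-6325763 had 93 reads in double negative (75.1 to 114), 20 in mCherry only and 23 in GFP only. A single one of the 10, at chr1:54192078-54192458 with 92 reads in double negative, was called in no other fraction. The leading gained peaks had 40 to 105 reads in mCherry only, while the leading lost peaks had 19 to 52 there where called. The sets also differed in their own lists, with heights of 22.0 to 41.3 for the gained and 17.7 to 24.0 for the lost peaks. Their position relative to genes was not analysed here.

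Regions called in both fractions were mostly open to a similar degree. Overlapping peaks formed 65570 shared regions, and the median log2 ratio of double positive over double negative height was −0.026 (quartiles −0.45 and 0.33). Height was at least 2-fold higher in double positive in 5062 regions (7.72%) and at most 0.5 of the double negative height in 6757 (10.3%). In the 25176 regions whose geometric mean height was 10 or more, the median was 0.032, with 2326 regions at least 2-fold higher (9.24%) and 1821 at most 0.5 (7.23%). The sign of these medians depended on the choice of regions, and both were small beside the quartiles.

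**Figure D3:**
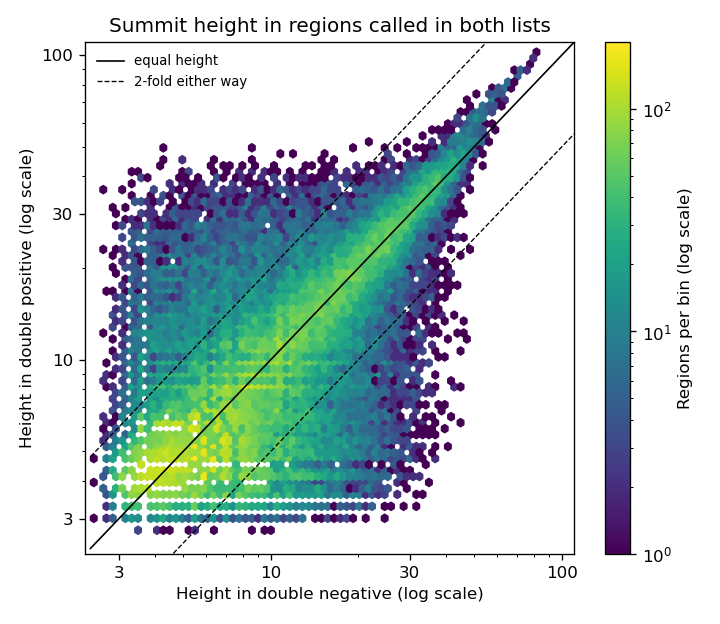
Summit height in double positive (y axis) against double negative (x axis) for the 65570 shared regions, both on log scales as reads over the background of the list; colour is the number of regions per bin on a log scale. Most regions lie near the solid line of equal height, and regions beyond the dashed 2-fold lines thin out towards the top, where 326 of 327 regions of double positive height 50 or more lie within 2-fold.

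The share of regions that differed by 2-fold or more varied with height. At a geometric mean height of 5 to 10, 8.51% of 30850 regions were at least 2-fold higher in double positive and 15.6% at most 0.5. At a geometric mean height of 10 to 20, 12.2% of 17661 regions were at least 2-fold higher in double positive and 9.81% at most 0.5. At 30 or more, 3 and 2 of 2657 regions were. Of the 1048 regions with a double positive height of 40 or more, 986 (94.1%) were within 2-fold of the double negative height, and of the 799 regions with a double negative height of 40 or more, 773 (96.7%) were. At a height of 20 or more the shares within 2-fold were lower. They were 80.0% of 9575 regions chosen by double positive height and 85.2% of 8626 chosen by double negative height. A large ratio needs 1 low value, so a high geometric mean limits it by construction, and below a mean of 5 the lowest heights called limit it too. Choosing shared regions by the height of 1 list alone avoids the limit set by the geometric mean. It still leaves out gained and lost peaks, which have no call in the other list, so the shares within 2-fold hold for shared regions only.

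Shared regions that were higher in double positive were also high in mCherry only and low in GFP only. In the 2326 regions at least 2-fold higher, median height was 24.0 in double positive, 17.5 in mCherry only, 9.15 in GFP only and 7.39 in double negative. Each median covers the regions called in that list, which were 2149 for GFP only. The mCherry only height was nearer, on a log scale, to double positive than to double negative in 1795 of the 2147 regions called in all 4 lists (83.6%, 82.0 to 85.1), and the GFP only height in 387 (18.0%, 16.5 to 19.7). GFP only had no call in 177 of the 2326 regions, and mCherry only had none in 2. In most of these regions the GFP only height was thus nearer to double negative. It lay between double positive and double negative in 63.2% of the 2147 regions. The mCherry only height was above the GFP only height in 93.3% of them, but also in 79.8% of the regions within 2-fold. A GFP only height below that of mCherry only was therefore not particular to these regions.

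Shared regions that were lower in double positive had intermediate median heights in the single-reporter fractions. In the 1821 regions at most 0.5 of double negative, median height was 7.43 in double positive, 11.9 in mCherry only, 9.15 in GFP only and 21.5 in double negative. Here and for the regions within 2-fold below, each median covers the regions called in that list. GFP only had no call in 38 of the 1821 regions. The GFP only height was nearer to double positive in 1424 of 1782 regions (79.9%, 78.0 to 81.7), and the mCherry only height in 1100 (61.7%, 59.4 to 64.0). In the regions within 2-fold these shares were 52.9% for GFP only and 55.4% for mCherry only, so the GFP only share departed from them more than the mCherry only share did. In the 21029 regions within 2-fold, medians were 16.5 in double positive, 18.2 in mCherry only, 15.5 in GFP only and 16.6 in double negative.

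**Figure D4:**
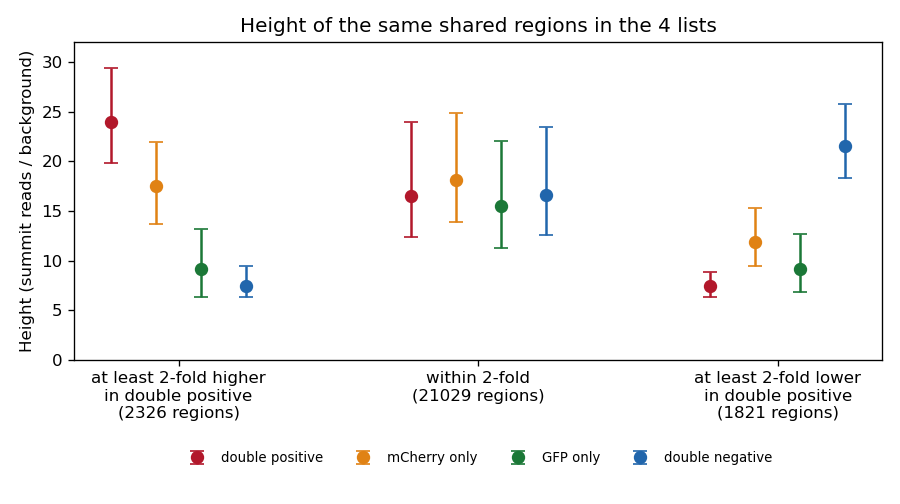
Height (summit reads over the background of each list) in the 4 fractions, double positive at the left and double negative at the right, for shared regions of geometric mean height 10 or more, split by the ratio of double positive over double negative height; points are medians over regions and bars are quartiles. The double positive and double negative values set the split, while the mCherry only and GFP only values did not: mCherry only has a median of 17.5 in the left group and 11.9 in the right group, and GFP only has 9.15 in both. Medians cover only regions called in the list, and GFP only had no call in 7.61% of the left group and 2.09% of the right group.

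The shared regions with the largest height ratios were near the calling limit in 1 of the fractions. The highest ratio was at chr9:31646508-31647084, with 148 reads in double positive (125 to 174), 109 in mCherry only, 16 in GFP only and 15 in double negative (8.40 to 24.7). Its height was 12.1-fold higher in double positive than in double negative. A region at chr21:4407458-4408187 had 176 reads in double positive (151 to 204), 143 in mCherry only, 40 in GFP only and 19 in double negative (11.4 to 29.7). In both regions mCherry only was nearer to double positive than to double negative: heights were 40.8 in double positive, 24.4 in mCherry only and 3.36 in double negative in the first, and 48.5, 32.1 and 4.26 in the second.

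The next ones repeated this order of the fractions. A region at chr1:8187107-8187826 had 150 reads in double positive (127 to 176), 101 in mCherry only, 29 in GFP only and 16 in double negative (9.15 to 26.0). A region at chr24:30704877-30705786 had 140 reads in double positive (118 to 165), 125 in mCherry only, 42 in GFP only and 15 in double negative (8.40 to 24.7). Another, at chr24:22389244-22389855, had 129 in double positive (108 to 153), 70 in mCherry only, 15 in GFP only and 14 in double negative (7.65 to 23.5). These 5 regions were chosen for this ratio, and the intervals cover counting error only.

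At the other extreme, a region at chr14:22219997-22221307 had 12 reads in double positive (6.20 to 21.0), 31 in mCherry only, 20 in GFP only and 140 in double negative (118 to 165). A region at chr10:26818915-26819502 had 14 reads in double positive (7.65 to 23.5), 45 in mCherry only, 31 in GFP only and 155 in double negative (132 to 181). A region at chr16:7100575-7101626 had 17 reads in double positive (9.90 to 27.2), 53 in mCherry only, 38 in GFP only and 167 in double negative (143 to 194). In all of them double negative was far above every reporter-positive fraction, and double positive was the lowest. The other 2 regions of the 5 with the lowest ratio, on chromosomes 12 and 9, had the same order, with 13 reads each in double positive and 145 and 143 in double negative.

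Peaks of shared regions were narrower in double positive than in double negative. The median width was 401 bp in double positive and 478 bp in double negative, and the median log2 ratio was −0.14 (quartiles −0.52 and 0.077), a ratio of 0.908. Double positive was narrower in 66.9% of regions and wider in 32.6%. The width was at least 2-fold larger in double positive in 1611 regions (2.46%) and at most 0.5 in 6538 (9.97%). The narrower width was also seen where heights were alike: among regions whose larger height was at most 25% above the smaller, the median log2 width ratio was −0.17 below a geometric mean height of 5 and −0.048 at 30 or more. The double positive list had fewer background reads, and the part of depth in the narrower peaks was not tested.

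The regions with the largest differences in width also differed in height. The region at chr16:124217-125506 was 1290 bp wide in double positive, with 85 reads (67.9 to 105), and 214 bp in double negative, with 26 reads (17.0 to 38.1). A region at chr22:17138688-17139831 was 1144 bp wide in double positive, with 111 reads, and 215 bp in double negative, with 30 reads. In the opposite direction, a region at chr8:29375192-29377051 was 290 bp wide in double positive, with 15 reads (8.40 to 24.7), and 1860 bp in double negative, with 132 reads (110 to 157). All 5 regions with the largest width ratio had a higher double positive height, and all 5 with the smallest had a lower one.

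Nearly all shared regions had a single peak in each list. This held for 63142 regions (96.3%), while 1646 (2.51%) joined several double positive peaks to 1 double negative peak and 709 (1.08%) joined 1 double positive peak to several double negative peaks. Summits lay close together in the regions of 1 peak each, at a median distance of 29 bp (quartiles 10 and 79). The median distance was 67 bp below a geometric mean height of 5 and 9 bp at 30 or more. Summits were more than 200 bp apart in 5293 regions (8.38%), and this share was 12.0% below a geometric mean height of 5, against 1.42% at 30 or more.

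Gained peaks made up a similar share of the double positive list on every chromosome. This share ranged from 23.6% on chromosome 22 to 27.5% on chromosome 10. The lost share of double negative peaks ranged from 55.1% on chromosome 23 to 64.3% on chromosome 9. Among shared regions of geometric mean height 10 or more, those at least 2-fold higher in double positive made up 6.70% on chromosome 1 and 12.8% on chromosome 18, and those at most 0.5 made up 3.93% on chromosome 22 and 10.3% on chromosome 9.

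Shares of single windows ranged more widely, but windows hold fewer peaks than chromosomes, so their counting error is larger. The part of counting error in this range was not tested. Among 269 windows of 5 Mb with at least 200 peaks of each list, the gained share had a median of 25.7% (quartiles 23.6 and 28.0) and the lost share a median of 60.0% (56.3 and 63.8). The lowest value of both was in the same window, the first 5 Mb of chromosome 22, where 56 of 470 double positive peaks were gained (11.9%) and 244 of 651 double negative peaks were lost (37.5%). The highest gained share was 33.7%, on chromosome 18 from 30 to 35 Mb, with 118 of 350 peaks. The highest lost share was 74.9%, on chromosome 12 from 40 to 45 Mb, with 472 of 630 peaks. On chromosome 4 beyond 25 Mb, 26.3% of double positive peaks were gained (24.5 to 28.2) and 50.6% of double negative peaks were lost (48.8 to 52.3). In the first 1 Mb of all chromosomes these shares were 26.1% and 55.1%.

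Distances to the other list depend on how many peaks it holds. Of the gained peaks, 11.6% had a double negative peak within 500 bp and 69.6% within 5 kb. For lost peaks, 4.44% had a double positive peak within 500 bp and 39.6% within 5 kb. No share over other positions of the genome was computed, so these values describe spacing and show no closeness of their own. When neighbouring summits no more than 20 kb apart were joined, 2975 gained peaks (12.7%) fell into 484 runs of 5 or more, and 75410 lost peaks (75.5%) into 6001 runs. The larger number of lost peaks shortens their spacing, and the runs of the 2 kinds are likewise not compared.

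The longest run of gained peaks held 13 at chr11:35299400-35392607. In this stretch of 93.2 kb there were 18 peaks in double positive, 16 in mCherry only, 11 in GFP only and 7 in double negative. The 13 gained peaks had 15 to 83 reads, and 7 of them were called in mCherry only and 4 in GFP only. Of all gained peaks 60.0% and 31.3% were, so the run does not stand out by these calls.

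**Figure D5:**
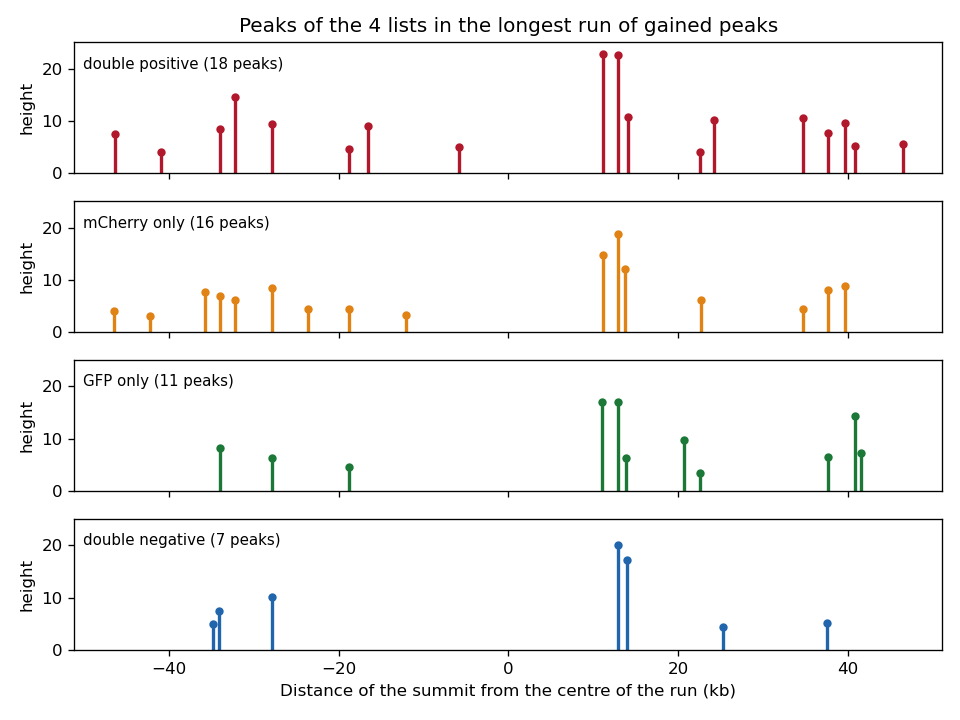
Summits of all peaks of the 4 lists in the longest run of gained peaks, one panel per list with double positive at the top and double negative at the bottom; the x axis is the distance from the centre of the run in kb and the y axis is the height (summit reads over the background of the list). The double positive panel has 18 peaks and the double negative panel 7.

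The other 4 of the 5 longest runs of gained peaks differed in how many double negative peaks they held. At chr15:19102815-19162040, 11 gained peaks with 22 to 95 reads formed a run with 14 peaks in double positive, 12 in mCherry only, 6 in GFP only and 3 in double negative. At chr4:10764810-10818908, 11 gained peaks lay among 15 peaks in double positive, 12 in mCherry only, 10 in GFP only and 7 in double negative. At chr23:32677784-32753504, 11 gained peaks with up to 103 reads lay among 19 peaks in double positive, 22 in mCherry only, 17 in GFP only and 11 in double negative. A run of 12 at chr17:37955758-38058961 lay where all lists had many peaks, 26 in double positive, 27 in mCherry only, 22 in GFP only and 17 in double negative.

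The longest run of lost peaks held 139 lost peaks at chr6:4432042-5277960. This stretch of 846 kb had 37 peaks in double positive, 83 in mCherry only, 64 in GFP only and 166 in double negative. At chr14:40656653-41351525, 136 lost peaks lay among 32 peaks in double positive, 83 in mCherry only, 90 in GFP only and 164 in double negative. At chr24:1425440-2033641, 113 lost peaks with 13 to 52 reads lay among 26 peaks in double positive, 78 in mCherry only, 64 in GFP only and 127 in double negative. The single-reporter counts lay between those of double positive and double negative in these 3 stretches, as they did on chromosomes 1 to 25 as a whole, where mCherry only had 134260 peaks and GFP only 138364.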

How the data were processed

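ATAC-seq peak lists of sorted zebrafish cells were used as deposited, 1 list per fraction, named by the labels for all 3 samples of the fraction. The submitters' processing notes name the tools Bowtie2 2.2.1 and MACS2 2.1.0, and danRer7 as the build. Nothing used here gives the caller settings, read filters, Tn5 offsets or pooling. Each deposited peak has the authors' fold (a ratio over the local background at the summit), −log10 p, −log10 q, a display score (not used) and a summit offset in bp.

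Summit reads were recovered as the whole number that gives both the deposited fold and −log10 p under a Poisson tail with a pseudocount of 1; the largest misfit of −log10 p was 0.000382, against 0.00808 or more for the next best whole number. This model was inferred from the values. The lowest expected background of a list is its genome-wide background. Peaks on chrM, 2 in double positive and 3 in double negative, were left out. Scripts ran in Python 3.11.15 with SciPy 1.17.1 and were tested on simulated peaks.

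Connected sets of overlapping peaks formed shared regions, with the tallest summit and the summed peak width of each list. Wilson and exact Poisson 95% intervals cover counting error only, since reads without molecular identifiers are not independent molecules. Named were the 10 gained and 10 lost peaks of highest fold, 5 shared regions at each end of the height and width ratios (geometric mean height 10 or more) and the 5 longest runs of each kind, ties going to the shorter span; a part of each set is described. Members, thresholds and lists were chosen with earlier results of these data known. No genome or annotation of danRer7 was used, so genes and sequences are not reported.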

Additional observations from a re-analysis of the deposited data

How the results depend on the processing

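No paired analysis was possible because each fraction is 1 pooled list, and no replicate was left out for the same reason. Peaks on unplaced scaffolds were to be added as an alternative, but the lists used here hold none. The threshold on the counted list alone was not run for ratios in shared regions, where both lists are counted.

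Gained peaks numbered 36463 with reciprocal overlap of 50%, 39148 with lists of equal length and 13566 with a minimum −log10 q of 5 on the counted list. Lost peaks numbered 40498 with equal length and 64732 with that threshold. Thresholds added after seeing the data, on the counted list alone, left 4216 gained and 8271 lost peaks at height 10, 799 and 345 at height 20, 720 and 294 at height 20 with local background under 5 times, and 630 and 714 at a fold of 10. A stricter rule of sharing can only raise these counts, and a threshold on the counted list can only lower them.

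The median log2 height ratio changed sign: it was 0.0086 with reciprocal overlap, 0.0015 with a minimum −log10 q of 5 in every list, 0.17 for double positive height 10 or more and 0.032 for geometric mean height 10 or more. It was −0.037 with a gap of 500 bp, −0.14 with equal length and −0.078 with the authors' fold. For double negative height 10 or more it was −0.16. Choosing regions by the height of 1 list favours that list. The opposite signs for double positive and double negative height 10 or more are thus partly built into the choice. The median log2 width ratio stayed negative in the alternatives run: −0.098 with reciprocal overlap, −0.16 with a gap of 500 bp, −0.11 with a minimum −log10 q of 5 in every list, −0.18 with equal length, −0.136 with 1 peak in each list and −0.073 for geometric mean height 10 or more.

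Of the gained peaks, mCherry only held 50.6% and GFP only 30.3% with reciprocal overlap, 62.5% and 34.2% with a gap of 500 bp, 69.0% and 28.1% with a minimum −log10 q of 5 in every list, and 49.5% and 28.3% with equal length. The mCherry only share was 76.8% with a minimum −log10 q of 5 on the counted list. At height 10 the shares were 91.3% and 32.6%, at height 20 98.4% and 43.3%, at height 20 with low local background 99.9% and 42.9%, and at a fold of 10 100% and 41.3%. The mCherry only share was the higher one in each of these. The shares of lost peaks in the single-reporter lists moved beyond their intervals in all 18 alternatives run for them. Beyond this, the cause was not tested.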
